A study of Triticum aestivum with 8 samples.

Results

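A set of 218 probes marked transcripts of the wheat embryo that the arrays first detected after 24 h of imbibition, the uptake of water that starts germination. A probe belonged to the set when the scanner software did not flag it as well above background on either dry-seed array or on any of the 3 arrays at 16 h, but did at 24 h, on each of the 3 arrays and with a processed signal of at least 20 linear units each time. The probes were thus chosen by their detection flags and signals on all 8 arrays. The set held 218 of 43603 non-control probes (0.5%), each printed as 1 spot, and the probes carried 216 sequence names. Embryos came from grains of the bread wheat cultivar Norin61 (Triticum aestivum), which were surface-cleaned with hypochlorous acid and laid on wet cotton at 25 °C in darkness. The groups were dry seed (2 arrays), grains imbibed for 16 h with a radicle of at least 3 mm (3 arrays) and grains imbibed for 24 h with a radicle of at least 7 mm (3 arrays). Each array was hybridised with Cy3-labelled RNA made from 200 ng of the total RNA of 1 pool of 7 whole embryos, and a stage's 21 grains were divided among 3 pools, of which 2 were analysed here for dry seed. The description fields of the imbibed samples give shorter times, so the hours used here rest on the titles and source names. No label says whether the pools of a stage were germinated apart from each other, so p-values measure only the spread among these pools, which may be technical.

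In a cereal grain, the embryo restarts respiration and protein synthesis from stored components soon after it takes up water, and new transcription follows. Emergence of the radicle, the embryonic root, marks the end of germination in the strict sense. Growth of the root and of the coleoptile, the sheath around the first leaf, comes after it. In pooled whole embryos, more cells that hold a transcript and more of that transcript per cell cannot be told apart.

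The files name most probes by sequence accessions or by the numbers of transcript assemblies, written as TA and a number. None of the 40253 sequence names matched the RefSeq gene table at hand (0 matches), so probes are given here by probe ID and, where they have one, by assembly name, and no function is attached to them. For the same reason the embryonic identity of the tissue and the lists of functional groups were not assessed here. Of the 218 probes, 93 (42.7%) were designed to TA assemblies, against 40.4% of all probes, and 32 (14.7%) to sequences with TC numbers, against 10.8%.

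The set was what remained after successive steps. Of the 43603 probes, 16839 were not well above background on either dry-seed array, and 10503 of these stayed so on all 3 arrays at 16 h. At 24 h, 8762 of the 10503 were still off on every array, 1140 were on for 1 array, 236 for 2 and 360 for all 3, and 218 of those 360 reached a signal of 20. Detection had mostly come earlier: 3897 probes were off in dry seed and on at 24 h at a signal of 20 or more, and 2957 of these were on for all 3 arrays at 16 h, 426 for 2 and 296 for 1. In the other direction, 27 probes were on for all dry-seed and 16 h arrays and off on all 24 h arrays. That count has no signal minimum, so its counterpart is the 360.

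On every array before 24 h, the probes lay near the floor of the scanner's range, and at 24 h most were dim. Their median processed signal, in linear units that the authors had not scaled between arrays, stood at 1.95 and 2.20 for dry seed. It was 5.09, 3.88 and 2.73 for the 16 h arrays and 54.1, 40.2 and 64.3 for the 24 h arrays. At 24 h the signals ran from 21.4 to 1419 on replicate 1, from 20.1 to 607 on replicate 2 and from 20.8 to 1734 on replicate 3. These values chose the probes, so the gap between the groups is a description and no test of it is given.

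**Figure D1:**
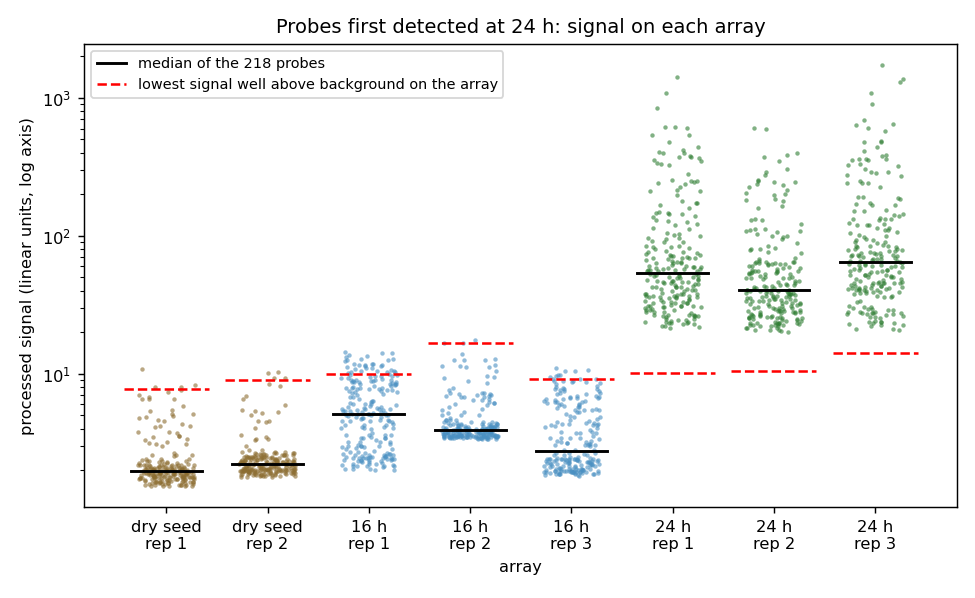
Processed signal (linear units, log axis) of each of the 218 probes on each of the 8 arrays, with the median as a black bar and the lowest signal flagged as well above background on that array as a dashed red line. Medians lie between 1.95 and 5.09 on the dry-seed and 16 h arrays and between 40.2 and 64.3 on the 24 h arrays; a few points before 24 h lie above the dashed line without having been flagged.

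The lowest signal that the software flagged as well above background differed between arrays, and it sets what can be said of the rise. The 2 dry-seed arrays had limits of 7.69 and 8.98. On the 16 h arrays it was 9.94, 16.8 and 9.09, and on the 24 h arrays 10.1, 10.5 and 14.2. Some probes came above that lowest signal without being flagged, 32 of the 218 on 16 h replicate 1, 1 on replicate 2 and 11 on replicate 3. Rises are therefore given as bounds: the mean log2 signal at 24 h against the mean, per 16 h array, of the lowest flagged signal, or of the signal the probe itself gave if that was larger, after subtracting each array's 75th percentile. A rise of "at least" a value below holds for this scaling and for the mean of the 24 h arrays.

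From 16 to 24 h the bound of the rise had a median of 3.98-fold over the 218 probes, with quartiles of 2.65 and 7.25. It ran from 1.58 to 68.1-fold. The bound was at least 2-fold for 201 probes, at least 4-fold for 109, at least 8-fold for 52 and at least 16-fold for 29. Within slides the median bound was 4.44-fold on slide 1, which held 16 h replicates 1 and 2 and 24 h replicate 1, and 3.94-fold on slide 2, which held the other imbibed arrays. All 218 bounds exceeded 1 on each slide, and also without scaling and with median, quantile or spike-in scaling. With the 5th percentile of well-above-background signals as the limit in place of the lowest, 216 did. The rule's minimum of 20 lies above the 16 h limits and above the 16 h signals of all 218 probes (17.5 at most). Without scaling, every bound above 1 therefore followed from the rule, and nothing is read from these counts. In the limma fit to all 8 arrays, which takes the signals as they are, 217 of the 218 were called higher at 24 h than at 16 h (adjusted p below 0.05 and at least 2-fold), where 11.7% of all tested probes were, and 0 lower, against 6.78%. Their median estimate was 3.59 on the log2 scale, against -0.01 for all tested probes. The rule used the same contrast, so nothing is read from that count.

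In signal, most of the set lay among the dimmest of the probes detected in the embryo. The geometric mean signal over the 24 h arrays ran from 21.6 to 891, with a median of 52.4 and quartiles of 35.1 and 94.8. Among the 28780 probes detected at 24 h with a signal of at least 20, whose median was 830, the 218 had a median percentile of 7.86. Of the 218, 130 lay in the lowest 10%, and 1 probe, A_99_P351256, lay at or above the median. Probes off in dry seed and already on at 16 h had a median 24 h signal of 128. Signals of different probes also depend on how well each probe binds, so these positions order brightness and not transcript number.

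A_99_P351256 had the largest bound. Its dry-seed signals were 2.06 and 2.24 and its 16 h signals 2.63, 3.99 and 2.21, and at 24 h it gave 849, 607 and 1374. The 3 arrays at 24 h lay far above all 5 earlier ones, and the rise from 16 h was at least 68.1-fold in the main scaling. The bound was 62.6-fold with median scaling, 57.4-fold with quantile normalization and 104-fold with spike-in scaling. A_99_P492787 was the most even of the 12 probes with the largest bounds, with 612, 595 and 637 at 24 h against 2.84, 3.86 and 2.05 at 16 h and 1.92 and 2.47 in dry seed, a rise of at least 47.0-fold.

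A second kind of bright probe was strong on 2 of the 24 h arrays and much weaker on the other. A_99_P479512 (TA83695_4565) had dry-seed signals of 1.53 and 1.78 and 16 h signals of 5.11, 3.37 and 4.33. At 24 h it gave 1419 and 1734 on replicates 1 and 3 and 131 on replicate 2, still above every earlier array, and its bound was 52.4-fold, or 126-fold without replicate 2. A_99_P538472 (TA78119_4565) likewise gave 1081 and 1301 against 159 at 24 h, after 3.40, 7.14 and 4.87 at 16 h and 2.59 and 2.29 in dry seed. Its bound was 46.4-fold, or 95.3-fold without replicate 2. A_99_P250646 (TA67346_4565) gave 620 and 1086 against 109 at 24 h, after 5.21, 3.38 and 1.82 at 16 h and 1.53 and 1.79 in dry seed, with a bound of 31.99-fold, or 65.9-fold without replicate 2.

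The remaining probes among the 12 with the largest bounds fell between these patterns. A_99_P294096 (TA79966_4565) gave 601, 228 and 690 at 24 h against 10.04, 5.57 and 7.30 at 16 h and 1.64 and 1.97 in dry seed, a rise of at least 34.7-fold. A_99_P439907 gave 479, 202 and 648 at 24 h against 5.72, 3.48 and 2.005 at 16 h and 1.75 and 2.006 in dry seed, at least 30.4-fold. A_99_P412747 gave 348, 187 and 490 at 24 h against 4.05, 3.42 and 1.95 at 16 h and 1.62 and 1.93 in dry seed, at least 24.2-fold. In each of these 3 the weakest 24 h array was again replicate 2.

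The spread was smaller for the next 3. A_99_P149597 gave 438, 397 and 357 at 24 h against 9.59, 3.56 and 6.47 at 16 h and 1.70 and 1.94 in dry seed, at least 30.2-fold. A_99_P416462 gave 535, 384 and 443 at 24 h against 10.9, 3.73 and 3.43 at 16 h and 1.84 and 2.04 in dry seed, at least 33.3-fold. A_99_P267736 (TA72220_4565) gave 416, 246 and 353 at 24 h against 3.69, 3.48 and 5.26 at 16 h and 1.74 and 2.02 in dry seed, at least 25.3-fold. After scaling, their highest and lowest 24 h arrays were 1.46, 1.76 and 2.14-fold apart.

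**Figure D2:**
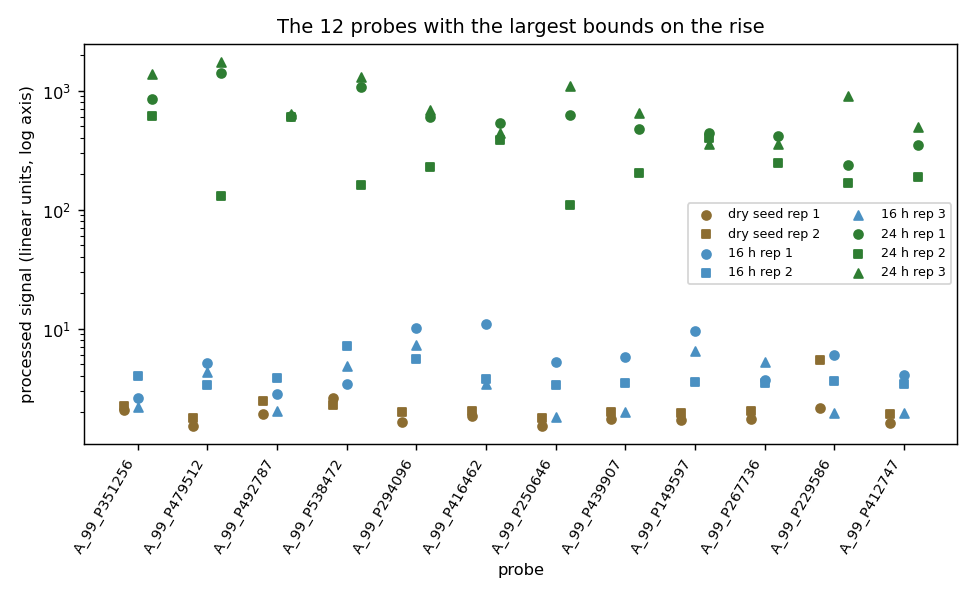
Processed signal (linear units, log axis) of the 12 probes with the largest bounds, in order of the bound, on each array; colour marks the group and symbol the replicate. All 24 h points lie at or above 109 and all earlier points at or below 10.9, and 24 h replicate 2 (green squares) falls far below the other 24 h points for A_99_P479512, A_99_P538472 and A_99_P250646.

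Both sequence names held by more than 1 probe of the set gave like values from their probes. For TA61435_4565, A_99_P229586 gave 237, 166 and 898 at 24 h, against 6.01, 3.65 and 1.97 at 16 h and 2.17 and 5.47 in dry seed, and A_99_P552147 gave 168, 100.001 and 607, against 7.42, 3.57 and 6.33 at 16 h and 2.31 and 3.34 in dry seed. In both probes replicate 3 was the highest and replicate 2 the lowest, and the bounds were 25.1-fold and 16.6-fold. For TA64728_4565, A_99_P497197 gave 45.6, 37.9 and 50.6 at 24 h and A_99_P240951 gave 36.3, 34.1 and 44.2. Their 16 h signals were 7.23, 3.46 and 4.28 and 3.32, 3.46 and 5.08, and their bounds 3.39-fold and 2.90-fold. In unscaled signal the order of the 3 arrays was the same in these probes too. After scaling, the highest array was not the same in A_99_P497197 and A_99_P240951. Over the whole set, unscaled signal was lowest on replicate 2 for 152 probes and highest on replicate 3 for 134.

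At the edge of the rule, values changed without a break. The 3 probes just inside had lowest 24 h signals of 20.1 (A_99_P546832), 20.5 (A_99_P053382) and 20.6 (A_99_P621437). The 3 just outside, A_99_P313656, A_99_P123180 and A_99_P315786, had lowest 24 h signals of 19.97, 19.96 and 19.8. A_99_P621437 was the exception to the limma calls: 11.2, 12.6 and 8.14 at 16 h and 23.2, 20.6 and 21.0 at 24 h gave a log2 estimate of 0.86 with a standard error (SE) of 0.36 and an adjusted p of 0.0795.

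Below the detection flag, many of the 218 probes gave some signal at 16 h. The software also sets a weaker flag, for a signal that is positive and significantly above local background. That flag was set for 75.7%, 25.7% and 52.8% of the 218 on 16 h replicates 1, 2 and 3, and for 35.1%, 16.4% and 37.0% of the 10285 other probes that were off before 24 h. In dry seed it was set for 23.9% and 14.7% of the 218 and for 25.9% and 19.4% of the others. By this flag 45 of the 218 were present on all 3 arrays at 16 h, 65 on 2, 71 on 1 and 37 on none. Taken over the 3 arrays, the 16 h signal was within 2-fold of the detection limit for 50 probes and over 4-fold below it for 42. "First detected" therefore describes the well-above-background flag, and for 32 of the 218 the weaker flag was also unset on all 5 arrays before 24 h.

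The 4 probes nearest to detection at 16 h had bounds between 2.13 and 4.75-fold. A_99_P529057 gave 14.1, 11.6 and 10.98 at 16 h and 46.9, 49.7 and 51.7 at 24 h, after 6.59 and 10.2 in dry seed, a rise of at least 3.15-fold. A_99_P151262 gave 9.31, 17.5 and 7.79 at 16 h and 59.8, 56.0 and 74.5 at 24 h, at least 4.75-fold. A_99_P529797 (7.95, 16.8 and 9.44, then 26.8, 22.7 and 36.8) and A_99_P098245 (10.68, 12.8 and 8.68, then 37.7, 35.1 and 42.2) had bounds of 2.13-fold and 2.85-fold.

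A single array at 16 h decided much of the size of the set. Leaving out 16 h replicate 1 raised the number that met the rule from 218 to 485, while leaving out any other single array gave between 220 and 307. The 267 probes so added had a median signal of 20.6 on 16 h replicate 1 (10.1 to 644), 5.90 and 6.87 on the other 16 h arrays, and 84.1, 70.8 and 95.2 on the 24 h arrays. 16 h replicate 1 was also the 16 h array with the highest median for the 218 and with the most of them passing the weaker flag. What set this pool apart was not tested.

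At 24 h the 218 probes varied more between arrays than detected probes in general, and mostly in 1 way. Their median SD over the 3 arrays was 0.43 on the scaled log2 scale, against 0.14 for all probes detected at 24 h with a signal of 20 or more. The highest and lowest array were within 1.5-fold for 73 of the 218 (33.5%), against 85.3% of all detected probes, and over 4-fold apart for 24 (11.01%), against 0.733%. On the scaled values, replicate 2 was the lowest of the 3 arrays for 182 of the 218 (83.5%), against 41.7% of all detected probes. On these values replicate 1 was the highest for 121, replicate 3 for 83 and replicate 2 for 14, while on unscaled signals the counts were 54, 134 and 30. Without scaling, replicate 2 was the lowest for 152 (69.7% against 14.9%), with quantile normalization for 170 (78.0% against 37.1%) and with spike-in scaling for 108 (49.5% against 7.11%).

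Replicate 2 lay a median of 0.61 below the mean of the other 2 arrays on the scaled log2 scale, a ratio of 1.53, where all detected probes had a median of -0.01. On the scaled values it was over 2-fold below each of the others in 52 of the 218. The same count over all detected probes is not given here. The gap was not limited to dim probes. The 5 steps of scaled level ran from the dimmest to the brightest. Their median deviations were -0.41 (100 probes), -0.83 (65), -1.29 (22), -0.85 (22) and -1.68 (9). Other detected probes of the same levels lay between -0.03 and 0.00. The rule's signal minimum held for replicate 2 as well, so a dim probe of the set could not fall far there. The smaller gap at the dimmest step may therefore come in part from the rule. Of the probes off before 24 h, 89 met the rule on replicates 1 and 3 only. Another 39 met it on replicates 2 and 3 only, and 12 on replicates 1 and 2 only. These probes are outside the counts and medians given here. In the deposited table of the series, the columns titled replicates 2 and 3 at 24 h matched each other's scanner file, so which pool "replicate 2" was rests on the scanner file's assignment.

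**Figure D3:**
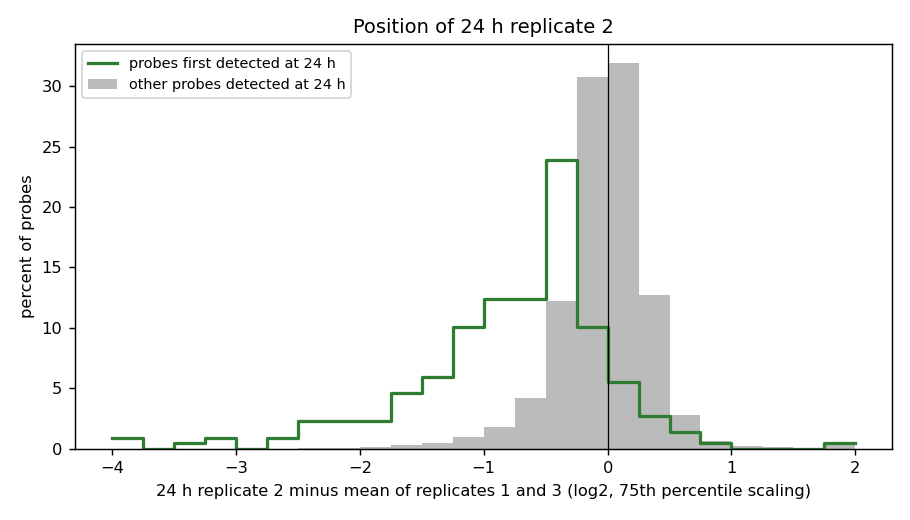
Distribution of the deviation of 24 h replicate 2 from the mean of replicates 1 and 3 (log2, after 75th percentile scaling), as percent of probes, for the 218 probes first detected at 24 h (green line) and for the 28562 other probes detected at 24 h (grey). The grey distribution is centred near 0 and the green one has its median at -0.61 with a tail to the left.

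The low position of replicate 2 was shared by other probes that rose between 16 and 24 h. Of the 2650 probes that were well above background on all 6 imbibed arrays and called higher at 24 h, replicate 2 was lowest for 74.0%, with a median deviation of -0.27. Of the 266 of these that rose at least 8-fold, it was lowest for 83.1%, with a median of -0.56. None of these probes met the rule for the set. What set the pool of replicate 2 apart was not tested.

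The extremes of the set show both patterns. The 4 probes with the largest spread at 24 h were A_99_P479512 and A_99_P250646, described above, A_99_P016559 with 408, 36.9 and 476 (SD 2.19 in log2) and A_99_P560752 with 249, 27.6 and 273 (SD 1.996). The last 2 had given 2.57, 3.96 and 2.33, and 2.49, 3.88 and 2.39, at 16 h. In all 4, replicate 2 was the low array. The 4 with the smallest spread were all dim: A_99_P273761 with 27.9, 34.9 and 33.7, A_99_P062573 with 36.5, 43.5 and 41.2, A_99_P037474 with 21.6, 25.6 and 23.8, and A_99_P318991 (TA87225_4565) with 46.7, 53.3 and 52.4. Their SDs lay between 0.02 and 0.07.

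Against dry seed the arrays could show less. For dry seed the 75th percentile of signal was 265 and 248, and it was between 1181 and 1527 at 16 h and 1375 and 1739 at 24 h, so a fixed detection limit is a much higher scaled level in dry seed. The minimum of 20 fixed an unscaled bound from dry seed to 24 h above 1 in advance. On unscaled signals that bound had a median of 6.31-fold (2.60 to 107.2) and was at least 2-fold for all 218. After 75th percentile scaling it had a median of 1.03-fold, exceeded 1 for 112 probes and was at least 2-fold for 52, with a maximum of 17.4-fold for A_99_P351256. The other 106 had no bound above 1, and with the 5th percentile of well-above-background signals as the limit the number above 1 was 62. With spike-in scaling, which sets levels against RNA added in known amounts, the median bound was 11.5-fold and exceeded 1 for all 218, and with median or quantile scaling it exceeded 1 for 90 or 106. limma called 180 of the 218 higher at 24 h than in dry seed, where 29.3% of all tested probes were. It called 1 lower (27.0% of all tested probes were), A_99_P576582, at -1.10 in log2, from dry-seed signals of 10.9 and 8.41 that were not well above background and 24 h signals of 25.9, 30.8 and 25.9. The rule used this contrast too.

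Other probes on the array carry the same sequence names and were not used by the rule, although they were hybridised with the same pools. There were 40 such probes, for 29 of the 216 names. Of these, 24 were tested, and limma called 19 of the 24 higher at 24 h than at 16 h and 0 lower. That is 79.2%, against 11.7% called higher of all tested probes. Of the 24, 11 were on for fewer than 3 arrays at 16 h and were tested only because all 3 arrays at 24 h detected them. That selection favours a higher call, and the probes free of it are given below. The median estimate of the 24 was 2.77 in log2, against -0.01 for all tested probes. With the slide as a fixed term the count was 19 as well, and with normexp background correction and quantile normalization it was 10, where 6.003% of all tested probes were called higher. On the scaled values 24 h replicate 2 was the lowest array for all 19 of those called higher and for 22 of the 24 tested. Another 12 of the 40 were off on all 8 arrays, and 4 were seen on some arrays but not tested. Bread wheat carries related copies of most genes in its A, B and D genomes, and how far each probe binds the other copies is not known from the files.

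For 20 of the 29 names another probe was flagged as detected on at least 1 dry-seed or 16 h array. For 11 names another probe was flagged by all 3 of the 16 h arrays, and for 8 by both dry-seed arrays. For these 20 names, "first detected at 24 h" holds for the probe and not for every probe of the sequence. The 13 probes on for all 6 imbibed arrays give folds that are not bounds. limma called 10 of them higher at 24 h, where 9.43% of all probes on for those 6 arrays were, and 0 lower. The 13 probes carry 11 names, and 3 of the 10 share the name of A_99_P585877, so they are not separate sequences. Over the 13 the median was 2.42 in log2 (5.35-fold), with a range from -0.52 to 6.17.

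A_99_P410322 is a second probe for TA72220_4565. Its dry-seed signals were 87.0 and 112, its 16 h signals 132, 88.4 and 91.8, and its 24 h signals 4647, 2837 and 3819. In unscaled signal the dry-seed and 16 h arrays lay together and all 24 h arrays far above them. The 75th percentile of signal was 265 and 248 in dry seed and 1181 to 1527 at 16 h. After scaling, the dry-seed level of this probe was therefore above that at 16 h. Its scaled log2 difference between 24 h and 16 h was 4.99 (SE 0.28, limma adjusted p 0.000157). The probe of the set for this name, A_99_P267736, reached 246 to 416 at 24 h.

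A_99_P467942, a second probe for TA83695_4565, repeated the uneven 24 h values of A_99_P479512. It gave 2823 and 3077 on replicates 1 and 3 and 344 on replicate 2, after 68.2, 49.6 and 60.05 at 16 h and 19.7 and 18.8 in dry seed. Its estimate was 4.43 (SE 0.82, limma adjusted p 0.00412). Replicate 2 was the low array in both probes of this name.

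A_99_P585877 of the set gave 128, 62.9 and 88.4 at 24 h and no more than 6.82 at 16 h, and 3 more probes carry its sequence name. All 3 were on at 16 h and rose: A_99_P267731 from 106, 31.2 and 32.9 to 5032, 2905 and 4103 (log2 6.17, SE 0.45), A_99_P594807 from 343, 55.6 and 64.5 to 3811, 2588 and 3484 (4.74, SE 0.64), and A_99_P167839 from 386, 202 and 234 to 5503, 3660 and 4876 (3.95, SE 0.28). In dry seed A_99_P167839 was on for both arrays, at 15.1 and 14.3, while A_99_P267731 and A_99_P594807 were on for neither. 16 h replicate 1 was the highest 16 h array in all 3. limma's adjusted p ran from 0.000253 to 0.00136.

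Not every name gave 1 answer. A_99_P416462 had a bound of 33.3-fold, and the other probe of its name, A_99_P167289, gave 29.4, 22.5 and 33.8 at 16 h and 29.7, 58.5 and 34.2 at 24 h, a log2 difference of 0.28 (SE 0.27, limma adjusted p 0.405). A_99_P406682 of the set rose from 3.43, 3.86 and 2.17 at 16 h to 68.5, 62.4 and 120 at 24 h. Another probe of its name, A_99_P434932, was bright throughout, with 4785, 4389 and 3340 at 16 h and 2625, 4210 and 3158 at 24 h, and its difference was -0.52 (SE 0.15, limma adjusted p 0.0210), below the 2-fold minimum. In both cases the second probe was already on in dry seed.

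**Figure D4:**
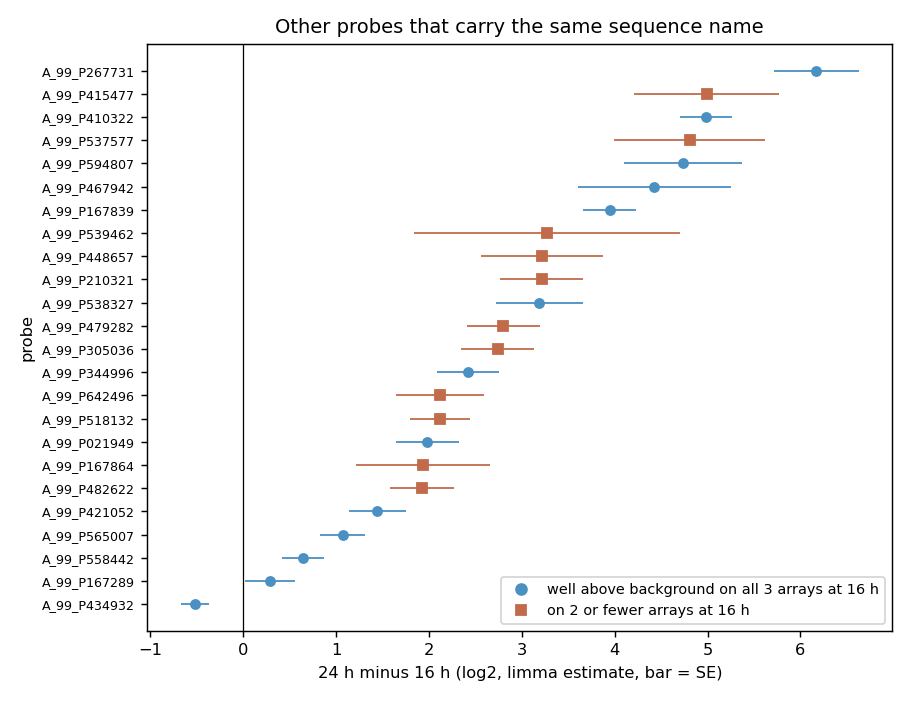
limma estimates of the log2 difference between 24 h and 16 h, with the standard error as a bar, for the 24 tested probes that share a sequence name with a probe of the set and do not belong to it. Circles mark the 13 probes on for all 3 arrays at 16 h and squares the 11 others; 23 of the 24 estimates lie above 0 and 1, A_99_P434932, below.

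Probes whose assembly numbers adjoin those of the set were the other readout that the rule did not use, and it was chosen after seeing the data. The 93 probes with TA names carry 91 numbers. Of the 33 tested probes 1 number away, 13 were called higher at 24 h than at 16 h (39.4%, against 11.7% of all tested probes), 1 lower, and their median difference was 0.60 in log2. Some of the 33 were tested only because all arrays at 24 h detected them, which favours a higher call and a higher median. With normexp background correction and quantile normalization 6 of the 33 were called higher. At 2 numbers away 5 of 30 were called higher (16.7%) with a median of 0.17, at 3 to 5 numbers 13.0%, at 6 to 10 numbers 9.41% and beyond 200 numbers 11.4%. Among the probes 1 number away that were on for all 6 imbibed arrays, 6 of 23 were called higher, where 9.43% of all such probes were, with a median of 0.20. Adjoining numbers moved alike outside the set as well: over pairs of other assemblies, Pearson's r of the log2 difference was 0.36 at 1 number apart (3191 pairs), 0.22 at 2 and 0.03 at 10. These correlations are across probes of the same arrays and are given as a description. What the numbering follows is not given in the sources used here.

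**Figure D5:**
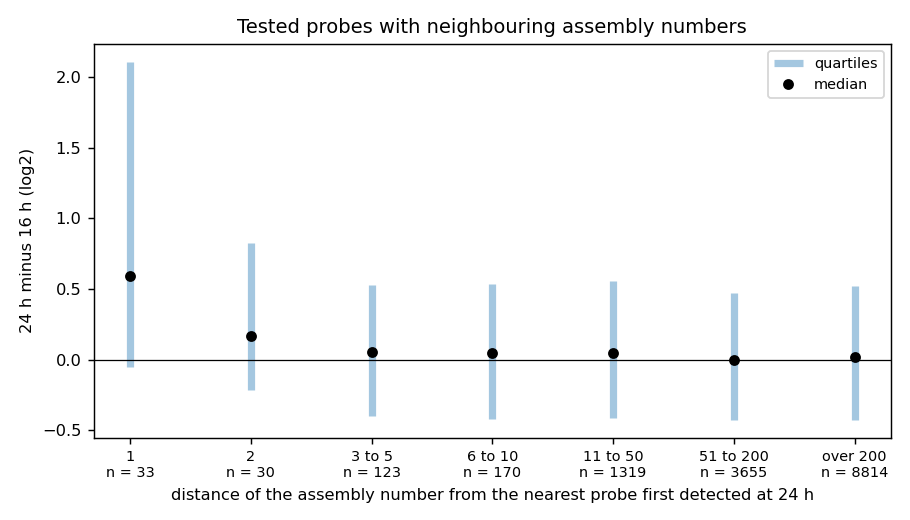
Difference between 24 h and 16 h (log2) of tested probes outside the set, by the distance of their assembly number from the nearest number in the set; points are medians, bars span the quartiles, and n is the number of probes. The median is 0.60 at distance 1, 0.17 at distance 2 and between 0.00 and 0.05 beyond. Probes tested only through their detection at 24 h are included.

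The 2 adjoining probes with the largest differences were seen at 16 h on replicate 1 alone. A_99_P312216 (TA85283_4565) gave 34.2, 5.58 and 6.32 at 16 h and 825, 872.5 and 1101 at 24 h. A_99_P446092 (TA64649_4565) gave 32.3, 3.62 and 5.42 at 16 h and 292, 845 and 412 at 24 h, and here replicate 2 was the highest 24 h array. A_99_P308956 (TA84347_4565) was on throughout: the dry-seed signals were 60.1 and 71.4, those at 16 h 48.0, 72.1 and 63.9, and those at 24 h 407, 609 and 588, with a log2 difference of 2.93.

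Within the set itself, 16 assembly numbers fell into 6 groups whose neighbours were at most 10 apart. The share of all assembly numbers that would fall into such groups is not given here. The largest group held TA64525_4565, TA64529_4565, TA64531_4565, TA64532_4565 and TA64533_4565. Its 5 probes gave 55.8, 61.4 and 80.2, then 26.7, 26.4 and 42.8, then 63.6, 75.4 and 123, then 23.9, 26.4 and 45.1, and last 33.6, 43.8 and 62.9 at 24 h. All 5 were highest on replicate 3, and replicate 2 lay 0.29 to 0.57 below the mean of the others on the scaled log2 scale. TA64527_4565 lies between these numbers and missed the rule because A_99_P240171 was on for 16 h replicate 1, with 56.9, 8.97 and 10.5 at 16 h and 919, 865 and 1456 at 24 h.

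In 2 other groups replicate 2 stood further apart. TA68270_4565, TA68271_4565 and TA68273_4565 gave 243, 178 and 252, then 380, 131 and 334, then 173, 64.7 and 186 at 24 h, with bounds of 16.9, 19.5 and 9.77-fold. TA70547_4565 and TA70548_4565 gave 83.8, 28.6 and 152, then 281, 83.9 and 479, with bounds of 5.46 and 17.1-fold. In both groups replicate 2 was the lowest array in every probe, by up to 2.34 in log2 below the mean of the other 2. The remaining groups, TA62369_4565 with TA62378_4565, TA63524_4565 with TA63529_4565, and TA64366_4565 with TA64372_4565, were dimmer, between 22.5 and 62.6 at 24 h. Tested probes between these numbers did not all rise. Between TA62369_4565 and TA62378_4565 the log2 difference from 16 h to 24 h was 0.01, 0.28 and -0.02 for TA62374_4565. It was 3.60 and 3.70 for TA62375_4565, 0.65 and 0.32 for TA62376_4565 and 0.74 for TA62373_4565. Between TA64366_4565 and TA64372_4565 it was -0.01 for TA64371_4565.

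The 218 spots were spread over the array. In 4 equal bands of the array's rows they numbered 46, 51, 53 and 68, which is 21.1%, 23.4%, 24.3% and 31.2%, where each band held 24.7% to 25.3% of all spots. 6 of the 218 had another probe of the set in an adjoining spot. The number for as many other probes is not given here.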

How the data were processed

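RNA levels were read on 8 one-colour Agilent arrays. Per the file headers, Agilent Feature Extraction 10.7.3.1 made the deposited intensity values (processed signal per spot), which are background-subtracted, linear and not scaled between arrays. The series' deposited table gives log2 values; they equal the log2 processed signal minus each array's 75th percentile, centred per probe, and they served as an alternative. Here, the 75th percentile over non-control probes was subtracted from each array's log2 signal, and spots of a probe were averaged, without those carrying an outlier flag. limma 3.58.1 (R 4.3.3; lmFit, eBayes, a mean per group, all 8 arrays) was fitted to the 30833 probes detected throughout 1 group or more. Benjamini-Hochberg adjustment ran over all of them, and calls needed an adjusted p below 0.05 and a 2-fold change. The fit was tested on simulated data. The number of arrays limits the precision.

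The probes and lists were chosen with earlier results of these data known. Named probes are the 12 with the largest bounds, those sharing a name within the set, the 4 with the lowest and the 4 with the highest spread at 24 h, the 3 just inside and the 3 just outside the minimum of 20, and the 4 nearest to detection at 16 h. Probes outside the set, and those of adjoining assembly numbers, were picked after their values were seen. Lists by gene description and cell type markers could not be applied, because 0 of 40253 sequence names matched the RefSeq table. No probe sequences were used here.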

Additional observations from a re-analysis of the deposited data

How the results depend on the processing

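The number of probes that met the rule was 360 with a signal minimum of 10 and 101 with a minimum of 40, and 32 when the weaker flag, positive and significant, replaced the detection flag. Leaving out each array in turn gave 220 to 485, the highest without 16 h replicate 1. The median bound from 16 to 24 h (log2) was 2.60 with spike-in scaling and 1.17 when the 5th percentile of well-above-background signals replaced the lowest as the limit, and 1.83 to 2.25 with each array left out. That from dry seed, 0.04 in the main setting, was 2.66 without scaling, 3.53 with spike-in scaling, -0.22 with median scaling, -0.03 with quantile normalization and -0.63 with the 5th percentile, and -0.13 to 0.29 with each array left out, so its sign depended on the setting. Spike-in scaling moved the median of all tested probes to 0.60 for 24 against 16 h and to 3.53 for 24 h against dry seed.

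Over all tested probes, 24 against 16 h gave 5682 calls, with 9716 under spike-in scaling, 3098 with normexp background, 3310 with only probes on for all 8 arrays, 16021 with no fold minimum, and 5010 to 6776 with each array left out. Of these calls 63.2% were higher, against 53.3% with median scaling, 92.5% with spike-in scaling, 51.1% with probes on for all 8 arrays and 51.2% with no fold minimum. For 24 h against dry seed the count was 17350, with 28759 under spike-in scaling, 26690 with no filter, and 17164 to 17585 with each array left out. The share of higher calls was 52.1%, against 97.3% and 33.8%, and 44.2% with median scaling and 43.1% with probes on for all 8 arrays, so the majority turned from higher to lower in the last 3. With normexp background 10 of the 24 probes sharing a name and 6 of the 33 probes 1 number away were called higher, where 6.003% of all tested probes were. Leaving out each array gave 18 to 20 and 12 to 14. Spike-in scaling put 24 h replicate 2 lowest for 108 of the 218. Under the cases just given the cause was not tested. No pairing of pools by replicate number was seen. Correlations ran from -0.04 to 0.12 for same-numbered pools and from -0.16 to 0.13 for differently numbered ones. With so few arrays, and the numbers of 24 h replicates 2 and 3 in doubt, they cannot show that pools were unpaired. With the replicate block the counts were 5648, 17446, 19 and 13, so it changed no count by over 1.5 times. The lowest signal that counts as detected limits every bound.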
